A study of Mus musculus with 6 samples.

Results

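The 9 genes for the synthesis, transport and breakdown of monoamine neurotransmitters that were followed in the cerebral cortex of male mice are Th, Ddc, Dbh, Tph2, Slc6a3, Slc6a4, Slc18a2, Maoa and Maob. All probe sets whose gene symbol entry on the array named one of these 9 genes were taken, which gave 13 probe sets of the 45077 in the deposited data, and every member was measured. The rule used gene symbols and no measured value, though the 9 genes were chosen with earlier results of these data known. Total RNA of the cerebral cortex from 6 mice, labelled as 16 weeks old, had been hybridised to Affymetrix mouse arrays, 1 array per mouse and 2 mice per group. The authors give this age for the mice they used and then describe acclimatization, feeding and tests before the brains were taken. The age at tissue collection is not given and may be later than 16 weeks. SAMR1 + Water was the senescence-accelerated mouse resistant 1 strain given water, and SAMP8 + Water (SAMP8 control) was the senescence-accelerated mouse prone 8 strain given the same volume of water. SAMP8 + STEE (STEE-fed SAMP8) received sugarcane top ethanolic extract by mouth at 20 mg/kg for 30 days and through a further 8 days of behavioral tests, which the water-fed mice also went through. The paper states that mice of every group also drank water with BrdU, a label for cell division, during the feeding period. SAMP8 is an inbred, non-transgenic strain with early age-related memory loss, and SAMR1 is a related strain rather than an isogenic control, so strain background and senescence cannot be told apart in the contrast between them.

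The deposited tables hold 1 mean per group and probe set, on the log2 signal scale, and no value for a single array. All levels below are the authors' means over the pair of arrays in a group, and no spread and no test could be computed from them. A difference is given between 2 group means, and it was counted as past the fold when it reached 0.25 on the log2 scale (1.19-fold on the linear scale). The deposited means carry 2 decimals, so rounding alone can move a difference by up to 0.01. Where a gene had several probe sets, the one with the highest mean signal stood for it in counts of genes. The strength of binding differs between probe sets, and levels of different genes were therefore not set against each other. Where 3 means are given without group names, their order is SAMR1, SAMP8 control, STEE-fed SAMP8.

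Monoamines are made from aromatic amino acids in a few small groups of neurons, which lie mostly in the midbrain, the brainstem and the hypothalamus and send axons into the cortex. Tyrosine hydroxylase (Th) or tryptophan hydroxylase (Tph2) carries out the first and rate-limiting step, aromatic L-amino acid decarboxylase (Ddc) makes dopamine or serotonin, and dopamine beta-hydroxylase (Dbh) turns dopamine into noradrenaline. Slc18a2 (VMAT2) loads the amines into vesicles, Slc6a3 (DAT) and Slc6a4 (SERT) take dopamine and serotonin back up, and the monoamine oxidases Maoa and Maob break the amines down. Because transcripts are found mainly in cell bodies, much of the monoamine machinery in cortex is present as protein in axons that arrive from elsewhere.

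The sequences upstream of Ddc, Slc18a2 and Th are shown because these members had group differences past the fold and a window lying wholly outside the annotated gene. Each is the 250 bases before the annotated start in RefSeq (GRCm38.p6, the C57BL/6J reference and not the SAM strains), written 5′ to 3′ on the strand of the gene, and capitals mark the motifs found.
Ddc (chr11:11898145-11898394, minus strand): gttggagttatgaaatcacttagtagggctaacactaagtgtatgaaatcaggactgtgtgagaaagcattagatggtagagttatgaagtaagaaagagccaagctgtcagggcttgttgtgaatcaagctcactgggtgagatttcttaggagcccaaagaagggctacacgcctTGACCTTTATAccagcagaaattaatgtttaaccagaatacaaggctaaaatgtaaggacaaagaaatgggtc
Slc18a2 (chr19:59260628-59260877, plus strand): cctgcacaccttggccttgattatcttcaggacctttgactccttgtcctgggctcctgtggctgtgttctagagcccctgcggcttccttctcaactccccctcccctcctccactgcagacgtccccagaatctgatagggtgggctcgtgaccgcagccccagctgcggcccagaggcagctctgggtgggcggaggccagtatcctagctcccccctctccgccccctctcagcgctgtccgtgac
Th (chr7:142899996-142900245, minus strand): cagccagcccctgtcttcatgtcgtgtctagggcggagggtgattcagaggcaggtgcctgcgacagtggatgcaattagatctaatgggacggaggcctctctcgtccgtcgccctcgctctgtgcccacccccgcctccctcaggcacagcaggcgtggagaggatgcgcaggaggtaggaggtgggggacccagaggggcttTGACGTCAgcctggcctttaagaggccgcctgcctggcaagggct

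A set of 4 motifs was searched on both strands of these windows. AAAGGTCA is the NBRE, which Nr4a2 binds. The bicoid core, which Pitx3 binds, was searched as TAATCC. The cyclic AMP response element (CRE) was searched as TGACGTCA. The TATA box was searched as its 6 letters TATAAA. The Ddc window held the reverse complement of the NBRE, beginning 73 bases before the start, and it overlapped the reverse complement of the TATA letters beginning at 68 bases before the start. The Th window held the CRE letters 45 bases before the start, and the Slc18a2 window held none of these motifs. Over all 32851 RefSeq promoter windows of this length, 1.34% held the NBRE, 6.25% the bicoid core, 1.55% the CRE and 12.4% the TATA letters. RefSeq held 9 windows for 8 of the members, with a second one for Ddc and none for Maob. The bicoid core was in 0 of the 9 windows, and Tph2 was the other member with TATA letters, 30 bases before its start. The Ddc window was 40.8% G or C, against 64.0% for Slc18a2, 64.4% for Th and a median of 52.4% over all windows. The second Ddc window (chr11:11890409-11890658) and the Slc6a3 window (chr13:73536497-73536746) lay inside their annotated genes and held none of the motifs. Which of the Ddc starts was used in this tissue was not tested, so the NBRE letters may lie before a start that was not in use here. A match of these letters is a description and was not tested as a binding site.

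The first comparison asked how the cortex of SAMP8 control mice differed from that of SAMR1 mice. Ddc, Slc6a3 and Slc18a2 were all about 2-fold lower in SAMP8 control, and no difference of the other 6 members went beyond 0.21 in size on the log2 scale. Thus 3 of the 9 member genes were past the fold, against 7.75% of all 20750 genes with a symbol of their own. All 3 were lower, against 3.86% of all genes. Of the 13 member probe sets, 3 were past the fold, against 8.52% of all probe sets. The median difference of the 9 members was -0.11, and that of all genes was 0.00. In bulk tissue fewer cells of a type and less RNA per cell cannot be told apart.

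**Figure D1:**
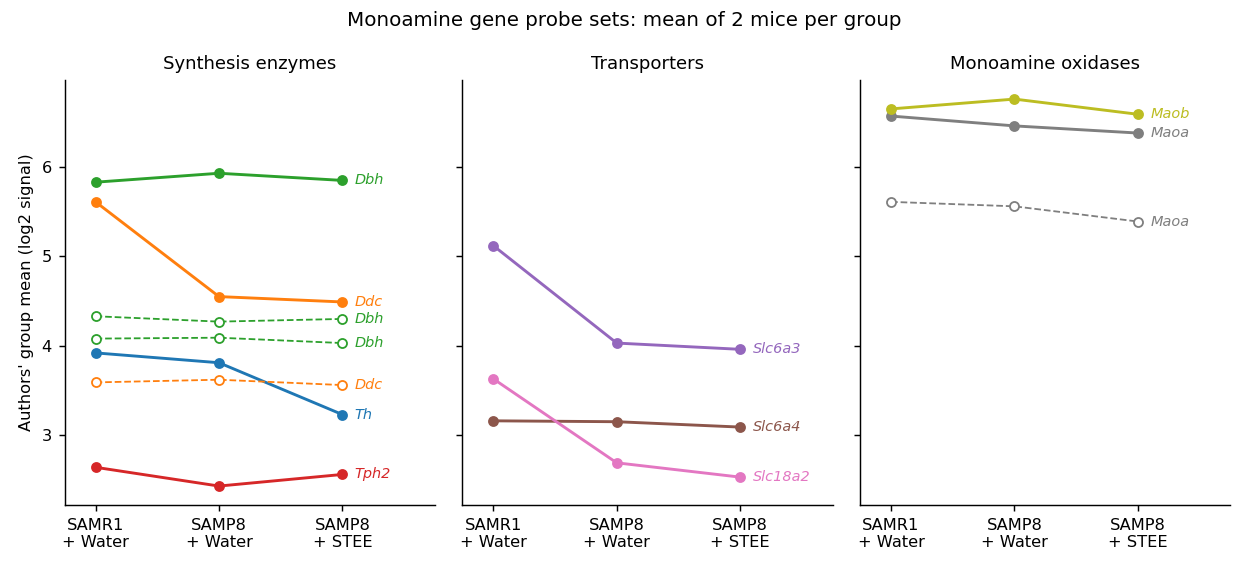
Authors' mean log2 signal (vertical axis) of each member probe set in SAMR1 + Water, SAMP8 + Water and SAMP8 + STEE; filled points and solid lines are the probe set with the highest signal of a gene, open points and dashed lines are further probe sets, and each point is a mean over 2 mice with no error available. Ddc, Slc6a3 and Slc18a2 step down from SAMR1 to both SAMP8 groups, Th steps down only from SAMP8 + Water (3.81) to SAMP8 + STEE (3.23), and the monoamine oxidases stay between 6.38 and 6.76 at their highest probe sets.

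Among the synthesis enzymes, Ddc decarboxylates both L-DOPA and 5-hydroxytryptophan and so serves dopamine, noradrenaline and serotonin neurons alike. The mean log2 signal of its main probe set (1426215_PM_at) was 5.61 in SAMR1 mice, against 4.55 and 4.49 in control and STEE-fed SAMP8. SAMR1 stood above both SAMP8 groups, which lay close together. The difference of SAMP8 control from SAMR1 was -1.06 (2.08-fold lower), larger in size than that of 99.8% of all probe sets. A second Ddc probe set (1430591_PM_at) did not show it: its means were 3.59, 3.62 and 3.56 in the same order, a strain difference of 0.03, at a signal below the median of 4.15 over all probe sets. The mean of both probe sets gave a Ddc difference of -0.52. Over the 9633 genes with 2 or more probe sets, the median gap between the highest and the lowest difference was 0.14.

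Th, which makes L-DOPA from tyrosine, had a mean log2 signal of 3.92 in SAMR1 and 3.81 in SAMP8 control. This difference of -0.11 was larger in size than that of 64% of probe sets, under the fold, unlike that of Ddc. Tph2, the tryptophan hydroxylase of brain serotonin neurons, had means of 2.64 in SAMR1 mice, 2.43 in control and 2.56 in STEE-fed SAMP8. Its strain difference of -0.21 and its difference of 0.13 with STEE were both under the fold, at signals below the median of 4.15. Dbh, which marks noradrenaline neurons, had 3 probe sets, and their strain differences ranged from -0.06 to 0.10. The brightest of them (1459848_PM_x_at) had means of 5.83, 5.93 and 5.85, and its name ending marks probes that may also bind other transcripts.

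Among the transporters, Slc6a3 returns dopamine from the extracellular space into dopamine neurons and is a defining transcript of midbrain dopamine cells. SAMR1 mice had a mean log2 signal of 5.12, against 4.03 and 3.96 in control and STEE-fed SAMP8. The strain difference was -1.09 (2.13-fold lower), and 52 probe sets of the 45077 had a difference as low or lower. In both SAMP8 groups its signal was under the median of 4.15. Slc18a2, which fills synaptic vesicles with every monoamine, had means of 3.63, 2.69 and 2.53. Its strain difference was -0.94 (1.92-fold lower), again with SAMR1 above both SAMP8 groups, but in each group its signal was under the median of 4.15. Slc6a4, the serotonin transporter, had means of 3.16, 3.15 and 3.09. Its strain difference was -0.01, and the step seen for the dopamine transporter was not seen for the serotonin transporter, whose signal was below the median in all groups.

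The monoamine oxidases sit on the outer mitochondrial membrane, Maoa chiefly in catecholamine neurons and Maob chiefly in astrocytes and serotonin neurons. Maoa had means of 6.57, 6.46 and 6.38 at its brighter probe set (1428667_PM_at). At the other probe set (1442676_PM_at) Maoa had 5.61, 5.56 and 5.39. Maob had means of 6.65, 6.76 and 6.59. The strain differences of -0.11 and -0.05 for Maoa and 0.11 for Maob lay under the fold, unlike those of Ddc, Slc6a3 and Slc18a2. Maoa and Maob are neighbours on chromosome X of GRCm38.p6, at chrX:16619698-16687812 and chrX:16709281-16817366.

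**Figure D2:**
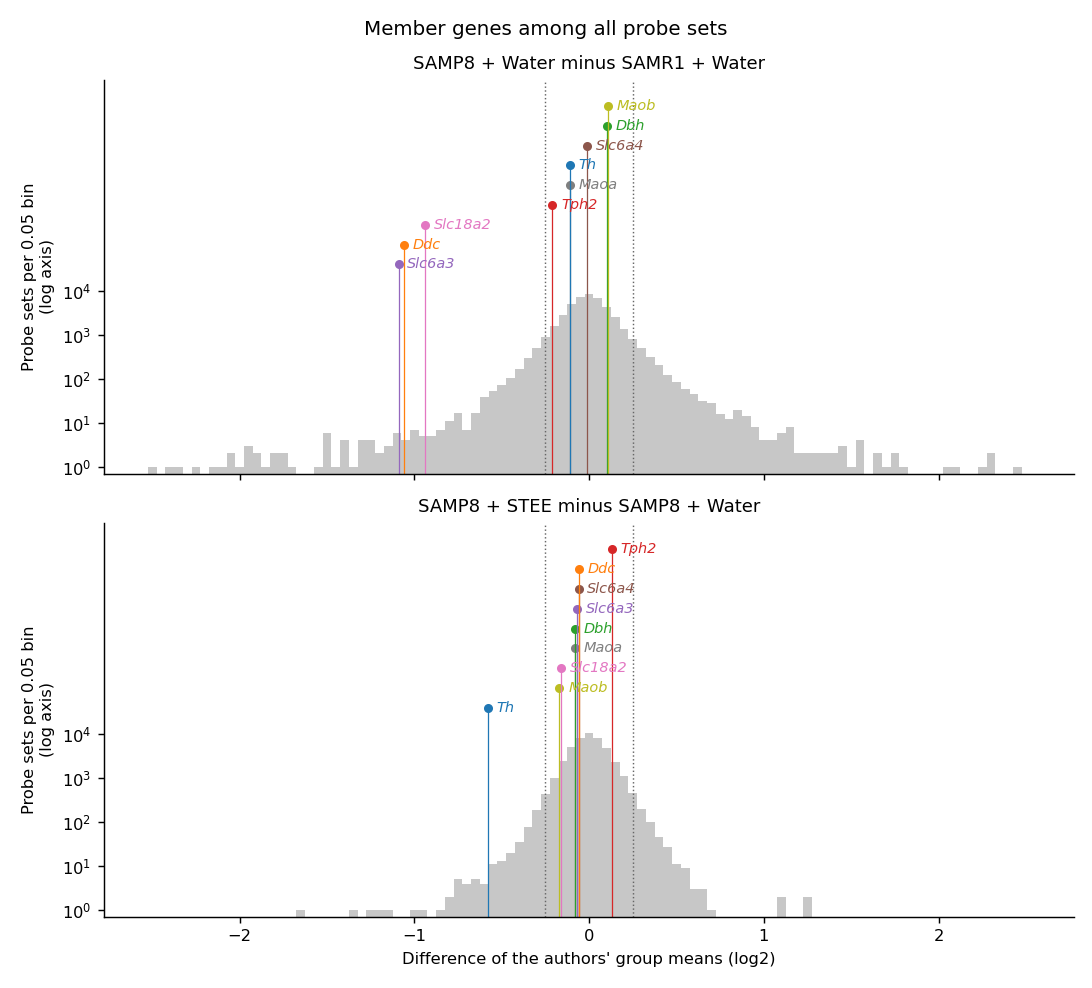
Differences of the authors' group means on the log2 scale (horizontal axis) for all probe sets, as numbers of probe sets per bin on a log axis, with the main probe set of each member marked at a height of its own and dotted lines at the fold of 0.25; 12 probe sets of the upper panel lie outside the plotted range. In the upper panel (SAMP8 + Water minus SAMR1 + Water) Slc6a3, Ddc and Slc18a2 lie between -1.09 and -0.94, and in the lower panel (SAMP8 + STEE minus SAMP8 + Water) Th lies alone at -0.58.

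The second comparison asked what STEE feeding altered within SAMP8. Th was the only member past the fold. Its mean log2 signal was 3.23 with STEE and 3.81 without, and the difference of -0.58 was a 1.49-fold lower level. This was larger in size than 99.9% of all probe sets, and 28 probe sets were as low or lower. Th has 1 probe set on the array (1420546_PM_at), and its signal in all 3 groups was below the median of 4.15. With 1 of 9 genes past the fold, the members stood against 2.55% of all genes in either direction and 1.25% in the lower direction. By probe set the count was 1 of 13, against 2.67%.

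Ddc, Slc6a3 and Slc18a2 were no closer to their SAMR1 means with STEE than without. Ddc differed by -0.06 between STEE-fed and control SAMP8, Slc6a3 by -0.07 and Slc18a2 by -0.16. These 3 differences had the same sign as the strain differences, and none reached the fold. The second Maoa probe set and Maob each differed by -0.17 with STEE, larger in size than 90.1% of probe sets and yet under the fold. The brighter Maoa probe set differed by -0.08, and the remaining members, Dbh, Tph2 and Slc6a4, lay between -0.08 and 0.13. The median of the 9 members was -0.08, against 0.00 over all genes.

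Another comparison set STEE-fed SAMP8 mice directly against SAMR1. This contrast shares its SAMP8 + STEE mean with the second comparison and its SAMR1 mean with the first, and the first 2 share SAMP8 control, so the 3 sets of differences are not independent of each other. In it 4 of the 9 members were past the fold, all lower, against 8.54% of all genes in either direction and 3.57% lower. By probe set the count was 4 of 13, against 9.45%. Slc6a3 differed by -1.16 (2.23-fold lower), Ddc by -1.12 (2.17-fold lower) and Slc18a2 by -1.10 (2.14-fold lower). Th differed by -0.69 (1.61-fold lower), made up of -0.11 between strains and -0.58 with STEE. Maoa was lower by 0.19 and 0.22 at its 2 probe sets, and Maob, Dbh, Tph2 and Slc6a4 lay between -0.08 and 0.02. The median of the members was -0.19, against -0.01 over all genes.

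The genes whose pattern over the 3 groups was most like that of a member were found by the distance between their pairs of differences (strain and STEE), over all 20750 genes and 3 group means. Ddc and Slc6a3 were each other's nearest gene, at a distance of 0.032 on the log2 scale. Within a distance of 0.1, Ddc had 3 genes and Slc6a3 had 1. The nearest to Slc18a2 was Lca5, a gene of the cilium, with means of 4.93 in SAMR1 mice, 3.95 in control and 3.79 in STEE-fed SAMP8. Th had no gene within 0.1, and its nearest was Dusp1, an immediate early phosphatase of MAP kinases, at 0.128. Dusp1 had means of 8.42, 8.23 and 7.75, a STEE difference of -0.48.

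The genes upstream and downstream of the members were read from lists of other pathway genes. Of 8 genes that make or recycle tetrahydrobiopterin, the cofactor of Th and Tph2, none was past the fold in the strain or the STEE comparison. Their median difference was -0.12 between strains and 0.03 with STEE. Qdpr, which recycles the cofactor, had the highest signal, with means of 10.70, 10.55 and 10.48. Gch1, the entry enzyme of cofactor synthesis, had means of 3.25, 3.34 and 3.12, a STEE difference of -0.22, against -0.07 at its other probe set. The other synthesis enzymes Tph1, Hdc and Pnmt were not past the fold in either comparison, and Pnmt, which makes adrenaline, had means of 5.23, 5.22 and 5.22. All 6 further transporters were under the fold in both, among them the noradrenaline transporter Slc6a2, with means of 4.64, 4.65 and 4.41 and a STEE difference of -0.24. Over the 4 Slc6a2 probe sets the STEE differences ranged from -0.24 to 0.01. Slc29a4, a low-affinity monoamine transporter, had the highest signal of this list, with 6.99, 6.92 and 6.87.

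Breakdown enzymes other than the oxidases were past the fold in single cases. Between the strains 2 of 7 genes were lower in SAMP8 control: Aldh2, an aldehyde dehydrogenase acting after the oxidases, by -0.34 (means of 7.09 and 6.75), and Aldh1a1, another aldehyde dehydrogenase, by -0.26 (means of 6.80 and 6.54). The 5 probe sets of Aldh2 ranged from -0.34 to 0.13, so they did not move together. With STEE 1 of 7 was higher, Sult1a1, a phenol sulfotransferase, with means of 5.05 in SAMR1 mice, 5.04 in control and 5.60 in STEE-fed SAMP8. Its STEE difference was 0.56 (1.47-fold higher), larger in size than that of 99.9% of probe sets. Akr1a1, an aldehyde reductase, had the highest signal of the list, with 10.65, 10.64 and 10.61.

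On the receiving side, 2 of the 4 dopamine receptors with a probe set were higher in SAMP8 control and none was past the fold with STEE. Drd1, the main Gs-coupled receptor of the striatum, which the array names Drd1a, had means of 7.47 in SAMR1 and 8.36 in both SAMP8 groups, a strain difference of 0.89 (1.85-fold higher). Drd2, the Gi-coupled receptor that also serves as autoreceptor, had means of 6.21, 6.56 and 6.68, a strain difference of 0.35. Of 8 adrenergic receptors, 1 was past the fold between strains, Adra2c with 4.98 and 5.31 (0.33), but its further probe sets reached down to -0.10. Adrb1 had the highest signal among them, with 7.46, 7.49 and 7.41, and no adrenergic receptor was past the fold with STEE. None of 12 transcription factors of monoamine neurons was past the fold in either comparison. Only 2 of the 12, Nr4a2 and Gata2, had a signal above the median over all probe sets, which limits what this absence can show. Nr4a2, which is needed for dopamine neurons and is also expressed in cortex, had means of 8.27, 8.43 and 8.34.

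**Figure D3:**
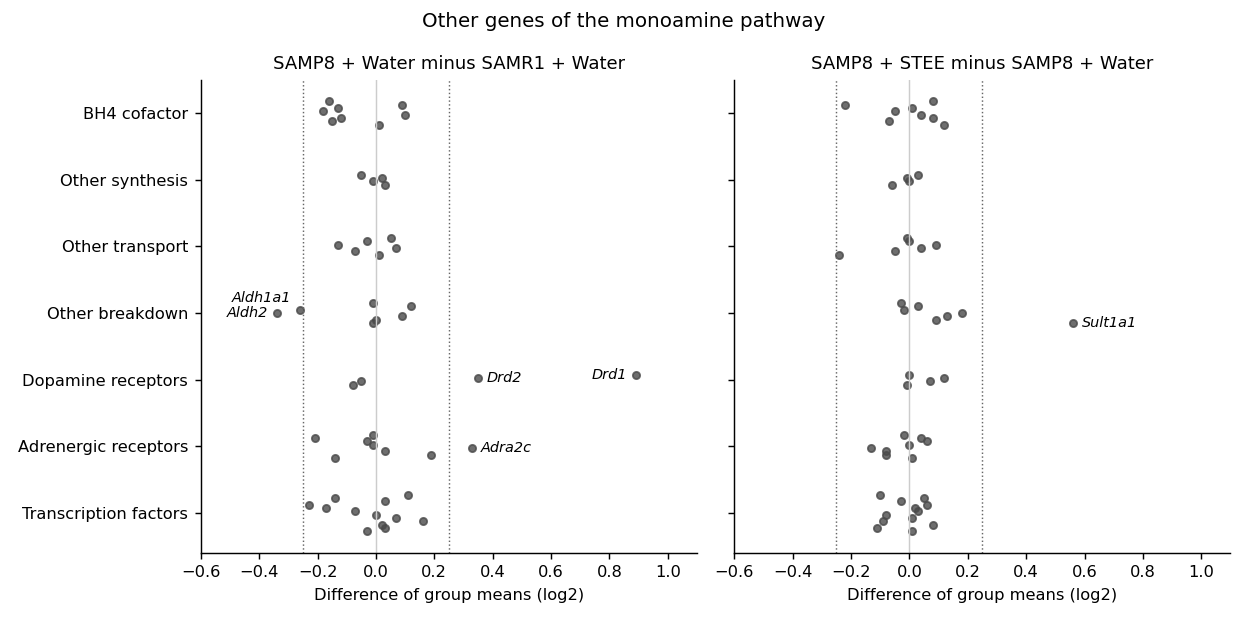
Difference of group means on the log2 scale (horizontal axis) for every gene of 7 lists of monoamine pathway genes outside the members, each point 1 gene at its brightest probe set, with dotted lines at the fold of 0.25 and names for genes past it. Between strains (left) Drd1 at 0.89, Drd2 at 0.35 and Adra2c at 0.33 lie to the right and Aldh2 and Aldh1a1 to the left, and with STEE (right) Sult1a1 at 0.56 is the one gene past the fold.

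The labelled tissue was checked against its markers, and markers of neighbouring brain regions were read beside the members. All 7 markers of cortical excitatory neurons were above the median signal, as the label of cerebral cortex calls for, and their summed linear signal was 1284 in SAMR1 mice, 1253 in control and 1425 in STEE-fed SAMP8. Markers of the hypothalamus and thalamus went with Ddc, Slc6a3 and Slc18a2. Of 6 hypothalamic neuropeptide genes, 4 were lower between the strains and none was past the fold with STEE, and their summed signal was 223, 108 and 110. The widest were Pmch, the precursor of melanin-concentrating hormone, with means of 5.79, 3.31 and 3.31, and Avp, vasopressin, with 5.66, 3.43 and 3.54. Hcrt and Agrp differed by -0.10 and -0.09. At their brightest probe sets all 3 thalamic markers were lower between strains, by -0.73 to -0.97, and none was past the fold with STEE. Their summed signals were 302, 176 and 192. The second Prkcd probe set differed by -0.23 between strains, under the fold. The probe sets of Tcf7l2 ranged from -1.24 to -0.43 and those of Slc17a6 from -0.80 to -0.73.

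Other cell types also moved with the strain step, counted here at the brightest probe set of each marker. Of 5 oligodendrocyte markers, 3 were lower in SAMP8 control and none was past the fold with STEE, with summed signals of 9104, 8081 and 7833. Mog, a myelin protein, differed by -0.63, Mobp by -0.39 and Mag by -0.31. Further probe sets of Mobp reached -0.03, while those of Mbp, under the fold at its brightest probe set, reached -0.66. Of 8 endothelial and pericyte markers, 3 were lower between strains and 1 lower with STEE, with summed signals of 680, 553 and 526. Slco1c1, a thyroid hormone transporter of brain vessels, was past the fold in both, by -0.42 and -0.26. Of 5 interneuron markers, 1 was higher between strains, Vip by 0.87, and none was past the fold with STEE, with summed signals of 3091, 3646 and 3537. Gad1 differed between strains by 0.24 at its brightest probe set, under the fold, and by 0.65 at its other one. Of the cortical excitatory markers, 1 was higher and 2 were lower between strains, and 3 were higher with STEE.

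Striatal markers went with the dopamine receptors. All 7 were higher in SAMP8 control, by 0.32 to 1.03 with a median of 0.72, and none was past the fold with STEE. Their summed signal was 1675 in SAMR1 mice, 2611 in control and 2656 in STEE-fed SAMP8. The part of these regions and cell types in the differences of Ddc, Slc6a3, Slc18a2, Drd1 and Drd2 was not tested. A list of 8 further genes enriched in dopamine neurons, chosen after values were seen, gave 2 past the fold, both lower in SAMP8 control: Cpne7, a copine, by -0.58 with means of 6.18 and 5.60, and Sncg, gamma-synuclein, by -0.25 with means of 3.79 and 3.54. The other 6 of them were under the fold at their brightest probe sets. Ret, the receptor of the GDNF family, is 1 of these 6, and its 2 probe sets disagreed: the brighter differed by -0.04 between strains, -0.01 with STEE and -0.05 between STEE-fed SAMP8 and SAMR1, and the other by -0.55, -0.27 and -0.82.

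Markers of the olfactory bulb, where a population of local neurons expresses Th, were read beside the Th difference. Of 4 markers, 3 were lower with STEE, and their summed signal was 64 in SAMR1 mice, 98 in control and 65 in STEE-fed SAMP8. Cdhr1, a marker of mitral and tufted cells, had means of 4.82, 5.67 and 4.90, and Eomes, from the same cells, had 4.19, 4.75 and 4.14. The markers and Th were both lower in STEE-fed than in control SAMP8. In SAMR1 they parted, since the bulb markers were as low there as in STEE-fed SAMP8 while Th was at its highest. The part of bulb tissue in the Th difference was not tested. The 7 astrocyte markers, relevant to Maob, had none past the fold in either comparison at their brightest probe sets. Their summed signals were 7379, 7045 and 7108. Over all probe sets, the strain differences ranged from -0.20 to 0.61 for Gja1 and from -0.26 to 0.09 for Slc1a3. Of 7 choroid plexus markers, 3 were lower between strains and 1 higher with STEE, Ttr, with means of 10.20, 8.24 and 9.33.

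**Figure D4:**
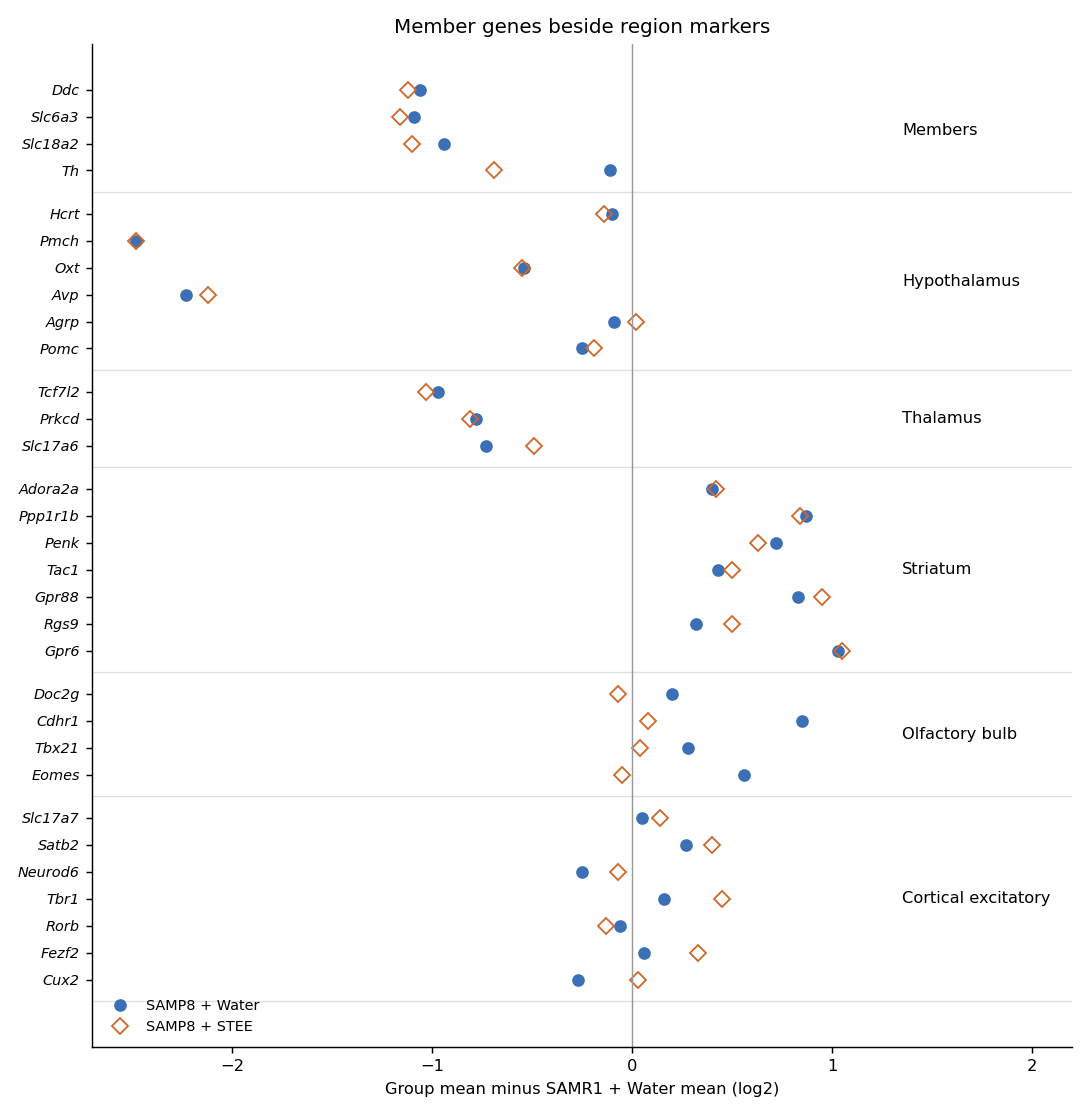
Group mean of SAMP8 + Water (filled circles) and SAMP8 + STEE (open diamonds) minus the SAMR1 + Water mean, on the log2 scale, for the 4 members past the fold and for markers of the hypothalamus, thalamus, striatum, olfactory bulb and cortical excitatory neurons, each at its brightest probe set. Both symbols lie left of 0 for Ddc, Slc6a3, Slc18a2 and all 3 thalamic markers and right of 0 for all 7 striatal markers, while for Th only the STEE-fed group lies far to the left, at -0.69.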

How the data were processed

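Total RNA from the cerebral cortex of 6 mice was labelled with the Affymetrix 3' IVT kit and hybridised to mouse genome 430 PM strips. The authors normalized the arrays by RMA in Expression Console, averaged the 2 arrays per group in Transcriptome Analysis Console, and deposited log2 group means with 2 decimals for 45077 probe sets; both tables hold the same SAMP8 control means. The fold changes, ANOVA p-values and FDR values deposited beside them were not used. Values of single arrays were not analysed here, so no replicate spread, test or interval is given, and the small number of arrays limits precision. Nothing states that the mice came from separate litters.

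Differences of means were computed in Python 3.11.15 with pandas 2.3.3 and checked on simulated data. A gene was read at its probe set with the highest mean signal, and 5694 probe sets without a symbol stayed in the counts of probe sets. A difference of 0.25 or more was counted as past the fold. All members were named with every probe set; other pathway genes were named where past the fold or highest in signal, and a like gene where at most 3 tied. A few further genes close to the fold, markers and Tph1 and Hdc were named after their values were seen. Members and lists were chosen with earlier results of these data known, and the list of further dopamine neuron genes was added after values were seen. The files name no genome build; coordinates and promoters come from RefSeq GRCm38.p6, matched by symbol.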

Additional observations from a re-analysis of the deposited data

How the results depend on the processing

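A set of 6 alternatives was run on the counts of members. The fold was set to 0.15 or 0.5 on the log2 scale. A further setting centred the differences of each comparison on their median over all probe sets. The others kept only probe sets above the median signal, dropped those with cross-hybridising name endings, or averaged all probe sets of a gene. In the STEE comparison the count of 1 gene became 3 genes (and 4 probe sets) at a fold of 0.15, with Maob and Slc18a2 added to Th, and 0 of 5 genes (0 of 7 probe sets) among those above the median signal, since Th lies below it. Between STEE-fed SAMP8 and SAMR1 the above-median restriction left 2 genes and 2 probe sets, Ddc and Slc6a3. Slc6a3 lies above the median of 4.15 in its mean over groups only through SAMR1 (5.12, against 4.03 and 3.96 in SAMP8), so its place in that count follows from the difference itself. All other counts stayed within 1.5 times the main count. Among them was the strain count of 2 of 5 genes above the median signal. Slc6a3 is 1 of those 2, so that count has the same limit. Of the values of single member genes, 96 of 96 kept their side of the fold of 0.25, but most of them could hardly move. Only 3 members have 2 or more probe sets, so most values came from the same probe set in every setting. Centring shifted a difference by at most 0.01. Averaging its probe sets moved the Ddc strain difference from -1.06 to -0.52.

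Leaving out each mouse in turn was not run because only group means were used. No paired analysis was possible because the columns hold group means, with no value per replicate number. From means over 2 arrays alone, a difference between groups cannot be set against the spread between mice, and the authors' p-values were not used. Th, Slc18a2, Slc6a4 and Tph2 had signals under the array-wide median, as Slc6a3 had in both SAMP8 groups, which limits what their differences can show. STEE was given to SAMP8 alone, so its effect in SAMR1 was not measured.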
